A study of Mus musculus with 39 samples.

Results

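In the Oct4+ population of mouse nEnd culture, 1827 genomic regions were listed as carrying both H3K9me3 and H3K27ac. nEnd is naive extra-embryonic endoderm, a stem cell culture model of the primitive endoderm of the blastocyst. The regions were chosen by their peaks. For each mark and population the peaks of the 3 libraries were merged, merged regions with a peak in 2 or more libraries were kept as consensus regions, and each Oct4+ H3K9me3 consensus region that shared 1 bp or more with an Oct4+ H3K27ac consensus region was taken. They made up 9.28% of the 19682 Oct4+ H3K9me3 consensus regions and touched 1824 of the 23570 Oct4+ H3K27ac consensus regions. Because the Oct4+ peaks of both marks selected them, their Oct4+ H3K9me3 and H3K27ac values are given as a description without a test. The 17855 Oct4+ H3K9me3 regions that touched no H3K27ac region (H3K9me3-only) and the 21746 Oct4+ H3K27ac regions that touched no H3K9me3 region (H3K27ac-only) served as comparison classes.

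All cells came from 1 OCT4-mCherry reporter line, grown with no treatment on feeder fibroblasts and sorted by OCT4-mCherry and PDGFRA-APC into Oct4+, DP (double positive) and Pdgfra+ cells. CUT&Tag, in which an antibody tethers a transposase that tags the DNA around a histone mark, was run for H3K9me3, H3K27ac, H3K4me1 and H3K27me3 in 3 replicates of each population, which gave 36 peak lists. The study's methods call the replicates biological, and the labels do not say whether they are separate cultures. The p-values below measure only the spread between these libraries, all from the same line. They treat the libraries as independent, and whether same-numbered libraries share a culture or sort is not known. With same-numbered libraries taken as blocks, each test against a comparison class gave p = 0.25 (exact sign-flip permutation). That is the smallest p that 3 blocks allow.

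H3K9me3 is the mark of constitutive heterochromatin. In early embryonic cells it is laid down by SETDB1, which KRAB zinc finger proteins and TRIM28 bring to endogenous retroviruses and to imprinting control regions, the elements that keep 1 parental copy of a gene silent. H3K27ac marks active promoters and enhancers, so the marks are usually found apart. A peak list pools many cells and both alleles. It cannot tell apart 2 marks on the same DNA molecule, on the 2 alleles of a cell, in different cells of a sorted population, or at neighbouring positions of a region.

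The number of listed peaks differed widely between libraries, from 14160 to 29871 for Oct4+ H3K9me3 and from 8574 to 65131 for Oct4+ H3K27ac. Oct4+ replicate 3 was the smallest list of both marks. Read depth was unknown, and a mark can be present where no peak was listed. As a check of the labels, H3K27ac lay over the promoters of 7, 7 and 6 of 8 pluripotency genes in the 3 Oct4+ libraries, against 3, 1 and 1 in DP and 1, 1 and 2 in Pdgfra+. For 8 endoderm genes the counts were 3, 6 and 0 in Oct4+, 8, 4 and 8 in DP and 7 in each Pdgfra+ library. Of 6 fibroblast genes, 1 had a promoter peak in Oct4+ replicate 1 and none in the other 8 H3K27ac libraries. Endoderm promoters were thus listed in 2 Oct4+ libraries, and their part in the regions with both marks was not tested.

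Recurring sequence set groups of these regions apart. Among 16-base sequences present in 15 or more of the 1827 regions, 2143 of 14823 were found in a share of regions at least 5 times that among H3K9me3-only regions. From these, 4 are described, taken in order of frequency where under 25% of the regions with a 16-mer held one already taken. At least 1 of the 4 was held by 279 regions, or 15.3%. They were chosen for their enrichment in these regions, so the shares are a description. Nearly all genomic copies of the 4 were soft-masked in the reference, the lower-case marking of interspersed repeats and simple repeats, but no repeat annotation was used here and no family is named.

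The first 16-mer was present in 90 regions (4.93%), in 86 H3K9me3-only regions (0.482%) and in 111 H3K27ac-only regions (0.510%). The genome held 622 exact copies, of which 93 lay in regions with both marks. The 3 copies below, outside exons, come from the regions with the strongest peaks of both marks among those that hold it. They are shown so that the bases around the shared 16-mer, in capitals, can be compared. All sequences are from RefSeq GRCm38.p6, the assembly that mm10 corresponds to, and are written 5′ to 3′ on the strand of the 16-mer.
Copy 25.1 kb from Tlr2, chr3:83872105-83872204, minus strand: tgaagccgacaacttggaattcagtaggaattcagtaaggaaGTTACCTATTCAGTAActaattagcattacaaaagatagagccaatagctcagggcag
Copy 2489 kb from Cntnap5b, chr1:102263678-102263777, minus strand: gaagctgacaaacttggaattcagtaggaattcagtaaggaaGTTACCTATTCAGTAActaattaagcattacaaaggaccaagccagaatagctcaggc
Copy 1956 kb from Cdh20, chr1:102811306-102811405, plus strand: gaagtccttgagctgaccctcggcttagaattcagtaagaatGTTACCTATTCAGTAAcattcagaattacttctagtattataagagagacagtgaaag

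The second 16-mer was present in 85 regions (4.65%), in 149 H3K9me3-only regions (0.834%) and in 105 H3K27ac-only regions (0.483%). Only 2 regions held both the first and the second. Its capitals end in the half-site that nuclear receptors such as ESRRB recognise, and the copy near Trim24 also holds the letters TCAAGGTC of the ESRRB motif.
Copy 88.2 kb from Prl2c2, chr13:12913432-12913531, plus strand: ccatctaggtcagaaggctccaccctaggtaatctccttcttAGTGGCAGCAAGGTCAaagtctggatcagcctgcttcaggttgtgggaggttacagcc
Copy 272 kb from Gm21863, chr12:20237314-20237413, plus strand: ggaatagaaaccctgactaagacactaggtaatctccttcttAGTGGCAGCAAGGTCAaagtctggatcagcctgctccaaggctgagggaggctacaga
Copy 65.0 kb from Trim24, chr6:37800335-37800434, minus strand: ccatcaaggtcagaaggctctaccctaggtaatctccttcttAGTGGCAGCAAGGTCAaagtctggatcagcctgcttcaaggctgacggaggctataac

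The third 16-mer was present in 84 regions (4.598%), in 161 H3K9me3-only regions (0.902%) and in 19 H3K27ac-only regions (0.0874%). The fourth, AAACCCCCACTCAGCT, was present in 36 regions (1.97%), in 65 H3K9me3-only regions (0.364%) and in 7 H3K27ac-only regions (0.0322%).
Copy 54.3 kb from Zfp978, chr4:147419027-147419126, minus strand: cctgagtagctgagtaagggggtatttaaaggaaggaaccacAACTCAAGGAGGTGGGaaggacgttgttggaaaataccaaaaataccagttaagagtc
Copy 77.5 kb from Fam3c, chr6:22436296-22436395, plus strand: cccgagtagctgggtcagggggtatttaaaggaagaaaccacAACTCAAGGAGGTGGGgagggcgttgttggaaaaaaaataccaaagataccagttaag
Copy 30.2 kb from Syt9, chr7:107337605-107337704, plus strand: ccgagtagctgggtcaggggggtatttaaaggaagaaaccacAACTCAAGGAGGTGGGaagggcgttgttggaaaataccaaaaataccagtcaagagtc

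The choice of the 4 sequences used their low share at H3K9me3-only regions but not the positions of the maxima. They were searched inside the H3K9me3 regions only, and no other sequences are given as a baseline. The 4 differed in where they lay relative to the marks. The first lay a median of 226.5 bp from the H3K27ac maximum and 808 bp from the H3K9me3 maximum, and was nearer the H3K27ac maximum in 67 of 90 regions. The second lay a median of 226 bp from the H3K27ac maximum and 728 bp from the H3K9me3 maximum, nearer H3K27ac in 55 of 85 regions. The third was the other way round, at a median of 1597 bp from the H3K27ac maximum and 539 bp from the H3K9me3 maximum, and was nearer H3K27ac in 25 of 84 regions. The fourth, at 1372 and 599 bp, was nearer H3K27ac in 8 of 36 regions. Of the printed copies of the second, those near Prl2c2 (9367 and 476 bp) and Gm21863 (10508 and 3237 bp) lay nearer the H3K9me3 maximum. That near Trim24 (238 and 1754 bp) lay nearer H3K27ac. Of the third, the copy near Zfp978 (1339 and 2451 bp) lay nearer H3K27ac, and the other printed copies nearer H3K9me3. Regions that share a repeat are not independent of each other, so no test was made.

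In the other populations the groups were small and were not tested against each other. H3K27ac consensus regions of DP lay over 6 of the 90 regions with the first sequence and 3 of the 85 with the second, 17 of the 84 with the third and 6 of the 36 with the fourth, which are 6.67%, 3.53%, 20.2% and 16.7%, beside 13.03% of all 1827 regions. In Pdgfra+ the numbers were 1, 0, 5 and 4, beside 7.83% of all regions. H3K9me3 consensus regions of DP lay over 31, 29, 36 and 14 of them, beside 44.7% of all regions. Reads of near-identical repeat copies can be assigned to the wrong copy, and the sources used here do not say how such reads were treated.

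The binding site for the tRNA that primes reverse transcription marks the start of an internal retroviral sequence. Sites of 18 bases were derived from the 3′ ends of 124 distinct RefSeq tRNA ends, with the added CCA, and searched on both strands. Intracisternal A particles prime with tRNA-Phe. Of all sites searched, TGGTGCCGAAACCCGGGA, listed for tRNA-Phe and tRNA-Ser, was the most frequent over the 3 classes. It was in 4 of the regions with both marks (0.219%) and in 335 H3K9me3-only regions (1.88%). A second site of tRNA-Phe, TGGTGCTGAAACCCGGGA, was in 5 (0.274%) and 126 (0.706%). None of the 21746 H3K27ac-only regions held either. Other sites were rare in both classes and did not all go the same way. The tRNA-Lys site TGGCGCCCAACGTGGGGC was in 0.274% of regions with both marks and 0.179% of H3K9me3-only regions, and a tRNA-Pro site, TGGGGGCTCGTCCGGGAT, in 0.219% and 0.364%. Each of the 12 most frequent sites was in 5 or fewer regions with both marks. Soft-masked sequence made up a median of 36.02% of a region with both marks (quartiles 24.4% and 49.1%), 45.3% of an H3K9me3-only region (29.5% and 64.1%) and 18.7% of an H3K27ac-only region (12.1% and 27.5%). Regions that were over 80% soft-masked made up 1.64% of those with both marks and 10.11% of the H3K9me3-only regions. Median GC content was 43.8%, 43.2% and 47.6% in the 3 classes.

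Short motifs were searched on both strands in 300 bp around the H3K27ac maximum. TCAAGGTC, the letters of the ESRRB motif, was in 5.53% of windows of regions with both marks and in 1.77% of windows of H3K27ac-only regions. Around the H3K9me3 maximum it was in 3.23% of windows of regions with both marks and 1.91% of those of H3K9me3-only regions. It was in 17 of the 90 windows of regions with the first 16-mer, in 21 of the 85 with the second and in 1 of the 84 with the third. Regions with none of the 4 sequences held it in 4.07%. The octamer ATGCAAAT, the core of the OCT4 motif, was in 2.41% of the windows of regions with both marks and 1.22% of those of H3K27ac-only regions. Around the H3K9me3 maximum it was in 3.34% of windows of regions with both marks and in 4.03% of those of H3K9me3-only regions. Around the H3K27ac maximum the letters AGATAAG, bound by GATA factors, were in 3.12% of windows of regions with both marks and 3.27% at H3K27ac-only regions. Around the H3K9me3 maximum they were in 4.49%, against 4.01% at H3K9me3-only regions. These letters are a description of the windows and were not tested for binding.

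**Figure D1:**
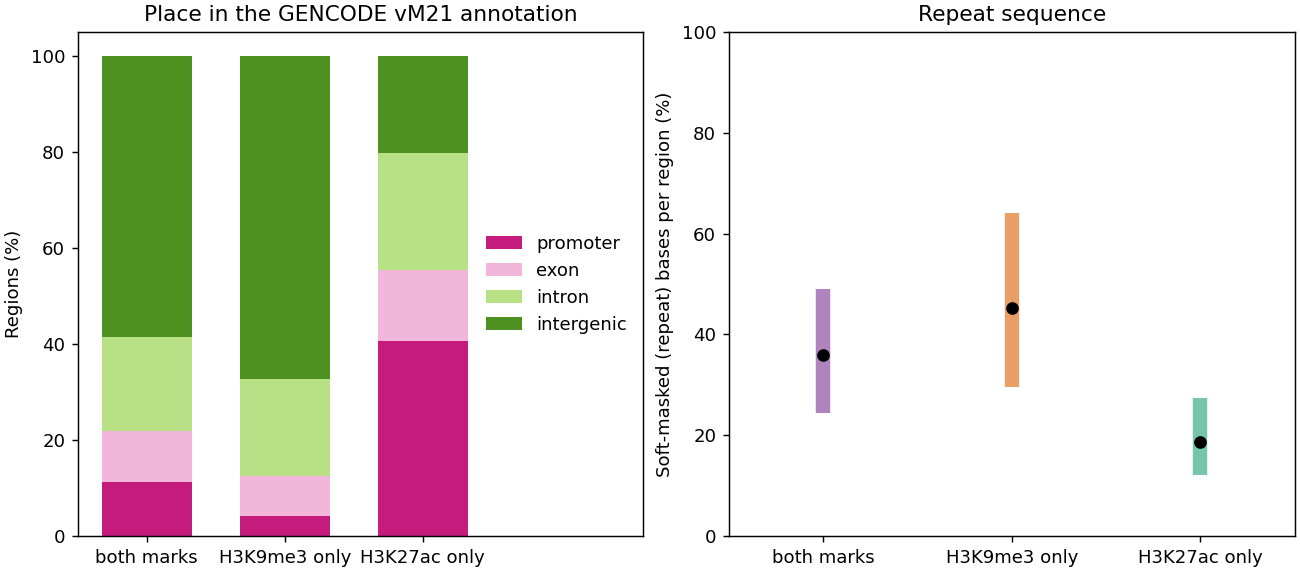
Left, percent of regions (y axis) of each class that overlap a promoter, else an exon, else an intron, else none of these. Right, percent of soft-masked bases per region (y axis), with the median as a dot and the quartiles as the bar. Regions with both marks lay between the other classes in all but the intron share, with 11.2% at promoters and a median of 36.02% soft-masked sequence.

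By place in the genome the regions stood closer to the H3K9me3-only class. Of the 1827, 1069 were intergenic (58.5%), 358 intronic, 196 over an exon and 204 over a promoter (11.2%), taken as 1000 bp before to 100 bp after a transcript start of a protein-coding or long non-coding gene in GENCODE vM21. Promoters were overlapped by 4.24% of H3K9me3-only and 40.7% of H3K27ac-only regions. A promoter covered the midpoint of only 2.24% of the regions. The median distance to the nearest start site of a protein-coding gene was 44.7 kb. Chromosome X held 7 of the regions, 460 H3K9me3-only and 140 H3K27ac-only regions.

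The 2 marks overlapped broadly but their summits were often apart. The regions had a median width of 3781 bp (quartiles 2812 and 5463 bp), against 2937 bp for H3K9me3-only and 3796 bp for H3K27ac-only regions, and a wider region meets another peak more easily. H3K27ac covered a median of 66.1% of a region. It covered 357 regions whole, lay inside 249, and overlapped 1221 at an edge. The H3K27ac maximum fell inside 1185 of the H3K9me3 regions (64.9%). The median distance between the 2 maxima was 1670 bp. They lay within 1000 bp of each other in 633 regions (34.6%) and within 5000 bp in 1660 (90.9%). At the limit of the rule, 31 regions shared under 100 bp with H3K27ac, the least 1 bp, and 37 H3K9me3-only regions ended within 100 bp of an H3K27ac region. Only 335 H3K9me3-only regions (1.88%) came within 1000 bp of one.

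**Figure D2:**
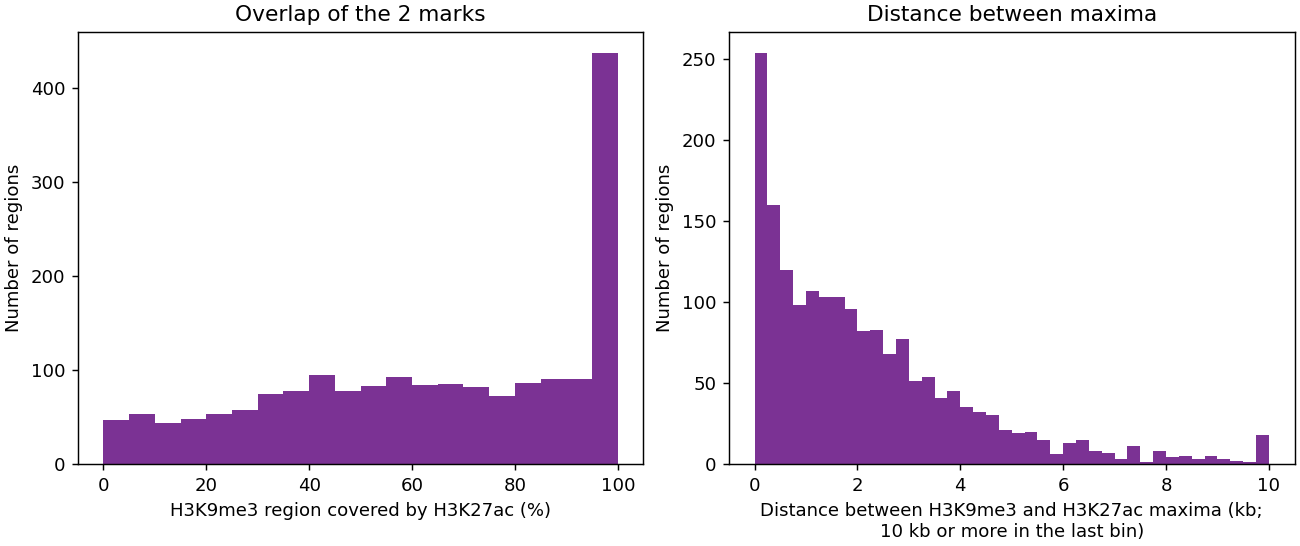
Histograms over the 1827 regions of the percent of each H3K9me3 region covered by H3K27ac (left, bins of 5%) and of the distance between the maxima of the 2 marks in kb (right). Complete or nearly complete cover was the most frequent bin, and the distances peaked near 0, with a median of 1670 bp and a long tail.

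The H3K9me3 peaks were present in 3 of 3 Oct4+ libraries at 1184 regions and in 2 of 3 at 643. H3K27ac was less even. A peak was listed at 89.7%, 92.8% and 39.0% of the regions in the 3 Oct4+ libraries, and 619 regions had all 3. Both marks were in all 3 libraries at 435 regions (23.8%). At 227 regions an H3K27ac peak of only 1 library reached into the H3K9me3 region, since the consensus region that it belongs to can extend beyond it. The number of regions fell to 506 without replicate 1, to 524 without replicate 2 and to 1640 without replicate 3.

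The rule applied to the other populations gave fewer regions. DP had 286 such regions of 13653 H3K9me3 consensus regions (2.09%) and Pdgfra+ had 156 of 11190 (1.39%). Of the DP regions, 107 (37.4%) overlapped the Oct4+ regions with both marks, and of the Pdgfra+ regions 52 (33.3%) did. In single libraries with the same replicate number, H3K27ac met 10.5%, 14.1% and 3.54% of H3K9me3 peaks in Oct4+, 2.37%, 0.382% and 2.10% in DP and 0.594%, 0.939% and 1.121% in Pdgfra+. When each list was cut to its strongest 5322 H3K9me3 or 3079 H3K27ac peaks, the shares were 3.46%, 2.65% and 2.69% in Oct4+, 1.13%, 0.770% and 1.01% in DP and 0.695%, 0.357% and 1.16% in Pdgfra+. The Oct4+ libraries lay above all DP and Pdgfra+ libraries in both counts, and since Oct4+ overlap chose the regions no test is given.

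To see which mark was found at the same places in the other populations, each region was given the consensus regions that it met there. In DP, 711 regions had H3K9me3 alone (38.9%), 133 had H3K27ac alone (7.28%), 105 had both (5.75%) and 878 had neither (48.1%). In Pdgfra+ the numbers were 596 (32.6%), 90 (4.93%), 53 (2.90%) and 1088 (59.6%). H3K9me3 alone was found in both DP and Pdgfra+ at 498 regions, H3K27ac alone in both at 67, both marks in both at 36, and neither mark in either at 825. At 529 regions (29.0%) there was no peak of either mark in any of the 12 DP and Pdgfra+ libraries. Counted with or without the other mark, H3K9me3 consensus regions of DP lay over 44.7% of the regions and 44.0% of H3K9me3-only regions. In Pdgfra+ the shares were 35.5% and 29.1%. For H3K27ac they were 13.03% against 30.1% of H3K27ac-only regions in DP and 7.83% against 19.2% in Pdgfra+. The H3K27ac lists held 3079 to 12244 peaks in DP and Pdgfra+ and 8574 to 65131 in Oct4+. The part of list length in these counts was not tested.

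**Figure D3:**
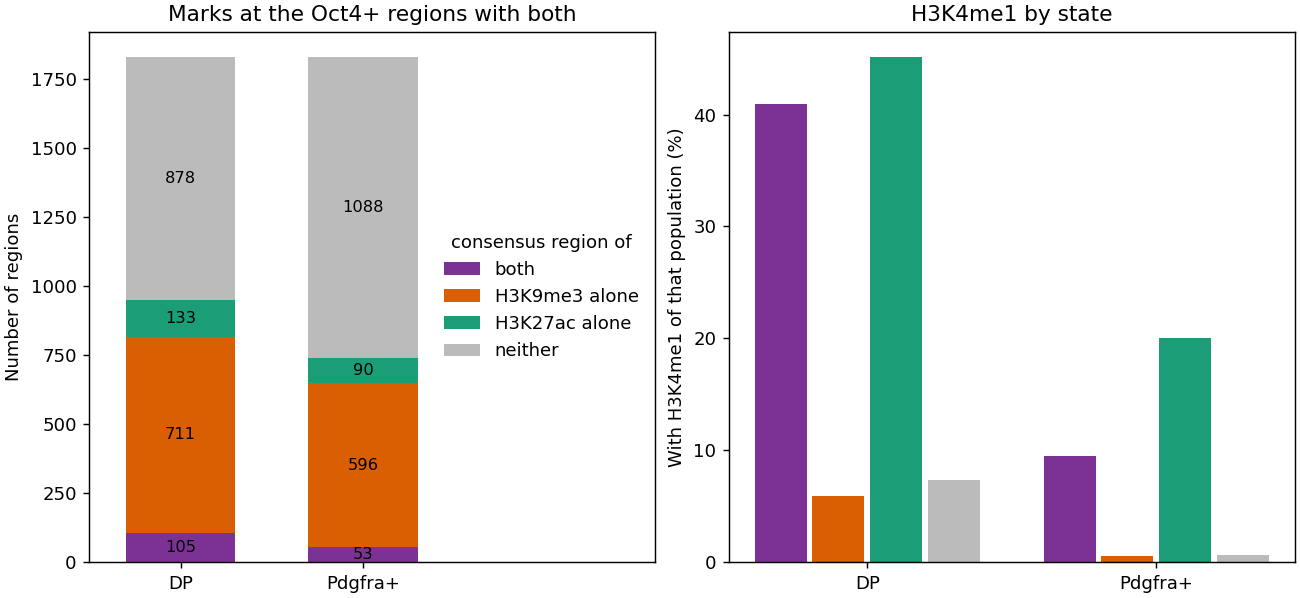
Left, number of the 1827 regions (y axis) with a consensus region of both marks, H3K9me3 alone, H3K27ac alone or neither in DP and Pdgfra+. Right, percent of each of these groups (y axis) that overlapped an H3K4me1 consensus region of the same population. Most regions had H3K9me3 alone or neither, and H3K4me1 was most frequent where H3K27ac was listed, as at 45.1% of the regions with H3K27ac alone in DP.

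H3K9me3 was listed in DP at 41.9%, 54.1% and 40.3% of the regions in the 3 libraries, and at 40.8%, 54.8% and 39.2% of H3K9me3-only regions. In Pdgfra+ the regions had H3K9me3 at 48.7%, 20.3% and 36.1% and H3K9me3-only regions at 47.5%, 13.5% and 29.9%. The regions were higher in 5 of 6 libraries, by a mean of 2.64 percentage points ± 3.09 (SD, n = 6), which did not pass the test (exact two-sided sign-flip permutation over libraries, Benjamini-Hochberg adjusted over 6 such tests, adjusted p = 0.0625). With widths held to 2000 to 5000 bp in both classes the difference turned to -2.34 points (adjusted p = 0.15, exact sign-flip). Leaving out replicate 1 or 2 turned it to -0.66 and -3.16 points, and a consensus of 3 of 3 libraries to -1.76 points. It passed the test at 5.12 points with a consensus of 1 or more libraries, at 5.22 with the stronger 50% of each list and at 15.2 with equal numbers of peaks (adjusted p = 0.0352, 0.0312 and 0.0469, exact sign-flip). Where a peak was listed, the H3K9me3 peaks at the regions stood higher in their own library than those at H3K9me3-only regions. Their median percentiles of total signal were 74.4, 77.8 and 73.7 against 58.9, 66.2 and 58.5 in DP, and 76.2, 74.2 and 72.0 against 64.1, 55.6 and 60.05 in Pdgfra+. That rank grows with the width of a peak, and it was not tested.

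H3K27ac was listed in DP at 18.1%, 5.53% and 13.4% of the regions and at 33.02%, 11.3% and 34.5% of H3K27ac-only regions. In Pdgfra+ the shares were 6.08%, 6.90% and 8.87% against 17.1%, 22.2% and 18.6%. The 2 classes are intervals of unlike kinds. The regions with both marks are H3K9me3 intervals, of which H3K27ac covered a median of 66.1%, and H3K27ac-only regions are whole H3K27ac intervals. That choice favours a lower share at the regions, and its part in the difference was not tested. The regions were lower in 6 of 6 libraries, with a mean difference of -12.96 points ± 5.31 (SD, n = 6; exact two-sided sign-flip permutation, adjusted p = 0.0375). Without replicate 1 it was -26.3 points and without replicate 2 it was -28.8 points, where 4 libraries cannot pass the test. It was -29.6 points with a consensus of 3 of 3 libraries, -27.5 with equal numbers of peaks and -3.74 with a consensus of 1 or more. That gap was not present away from promoters, an alternative added after the data were seen. Among the 1623 regions and the 12902 H3K27ac-only regions that overlapped no promoter, the shares were 15.5%, 4.19% and 10.4% against 11.7%, 2.88% and 13.04% in DP, and 4.68%, 4.68% and 7.15% against 5.52%, 5.495% and 4.76% in Pdgfra+. There the mean difference was 0.53 points ± 2.41 (SD, n = 6; exact two-sided sign-flip permutation, adjusted p = 0.594), with 3 libraries on each side of 0. In all 6 libraries H3K27ac was far more frequent at the regions than at H3K9me3-only regions, where it was listed at 0.157% to 1.25%.

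H3K4me1, the mark of primed and active enhancers, took no part in the rule. It was listed in Oct4+ at 7.39%, 27.5% and 12.8% of the regions, against 0.185%, 1.35% and 0.454% of H3K9me3-only regions and 10.4%, 32.7% and 18.3% of H3K27ac-only regions. In DP the regions had it at 4.27%, 15.4% and 11.3% and in Pdgfra+ at 1.26%, 0.493% and 7.39%. The regions lay above H3K9me3-only regions in 9 of 9 libraries, by a mean of 9.12 points ± 7.90 (SD, n = 9; exact two-sided sign-flip permutation, adjusted p = 0.00586). They lay below H3K27ac-only regions in 9 of 9, with a mean difference of -5.16 points ± 2.98 (SD, n = 9; exact two-sided sign-flip permutation, adjusted p = 0.00586). The latter comparison again sets H3K9me3 intervals against H3K27ac intervals. Away from promoters both differences kept their direction, at 9.16 and -3.99 points (exact sign-flip, adjusted p = 0.00781 for each). With widths held to 2000 to 5000 bp the second shrank to -1.50 points (adjusted p = 0.152, exact sign-flip). Without replicate 1 the differences were 16.6 and -8.74 points, and without replicate 1 or 2 neither passed the test (adjusted p = 0.0625, exact sign-flip). As consensus regions, Oct4+ H3K4me1 met 285 regions (15.6%), 0.56% of H3K9me3-only and 19.5% of H3K27ac-only regions. In DP, H3K4me1 lay over 43 of the 105 regions with both marks there, 60 of the 133 with H3K27ac alone, 42 of the 711 with H3K9me3 alone and 64 of the 878 with neither.

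H3K27me3, the Polycomb mark, was rare at the regions. Its share ranged from 0.219% to 1.64% over the 9 libraries. The regions lay above H3K9me3-only regions in 9 of 9 libraries, by a mean of 0.249 points ± 0.126 (SD, n = 9; exact two-sided sign-flip permutation, adjusted p = 0.00586), and below H3K27ac-only regions in 9 of 9, with a mean difference of -2.22 points ± 1.43 (SD, n = 9; exact two-sided sign-flip permutation, adjusted p = 0.00586). Here too the second difference compares H3K9me3 intervals with H3K27ac intervals. The small excess over H3K9me3-only regions dropped to 0.104 points away from promoters (adjusted p = 0.0586, exact sign-flip). It was 0.480 points without replicate 1 and 0.152 without replicate 2, and the second difference was -0.905 and -0.804 points, none of which passed the test. No region had a peak in all 36 libraries, and the most was 25.

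Between populations these differences did not pass a test with all peaks. The H3K9me3 excess was 0.520 points ± 1.05 (SD, n = 3) in DP and 4.75 ± 3.06 (SD, n = 3) in Pdgfra+ (exact permutation, adjusted p = 0.181), and the H3K27ac difference was -13.9 ± 7.72 and -12.0 ± 2.89 points (SD, n = 3; exact permutation, adjusted p = 0.8). With 3 against 3 libraries the smallest p possible is 0.1. The H3K4me1 excess over H3K9me3-only regions was 15.2 ± 9.79 points in Oct4+, 9.43 ± 5.07 in DP and 2.73 ± 3.33 in Pdgfra+ (SD, n = 3; exact permutation of the F statistic, adjusted p = 0.181). Oct4+ peaks chose the regions, so a higher value in Oct4+ than in the other populations is favoured by the choice and is no independent result. The excess for H3K27me3 was 0.122 ± 0.0640, 0.281 ± 0.0395 and 0.343 ± 0.137 points (SD, n = 3; exact permutation of the F statistic, adjusted p = 0.181).

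**Figure D4:**
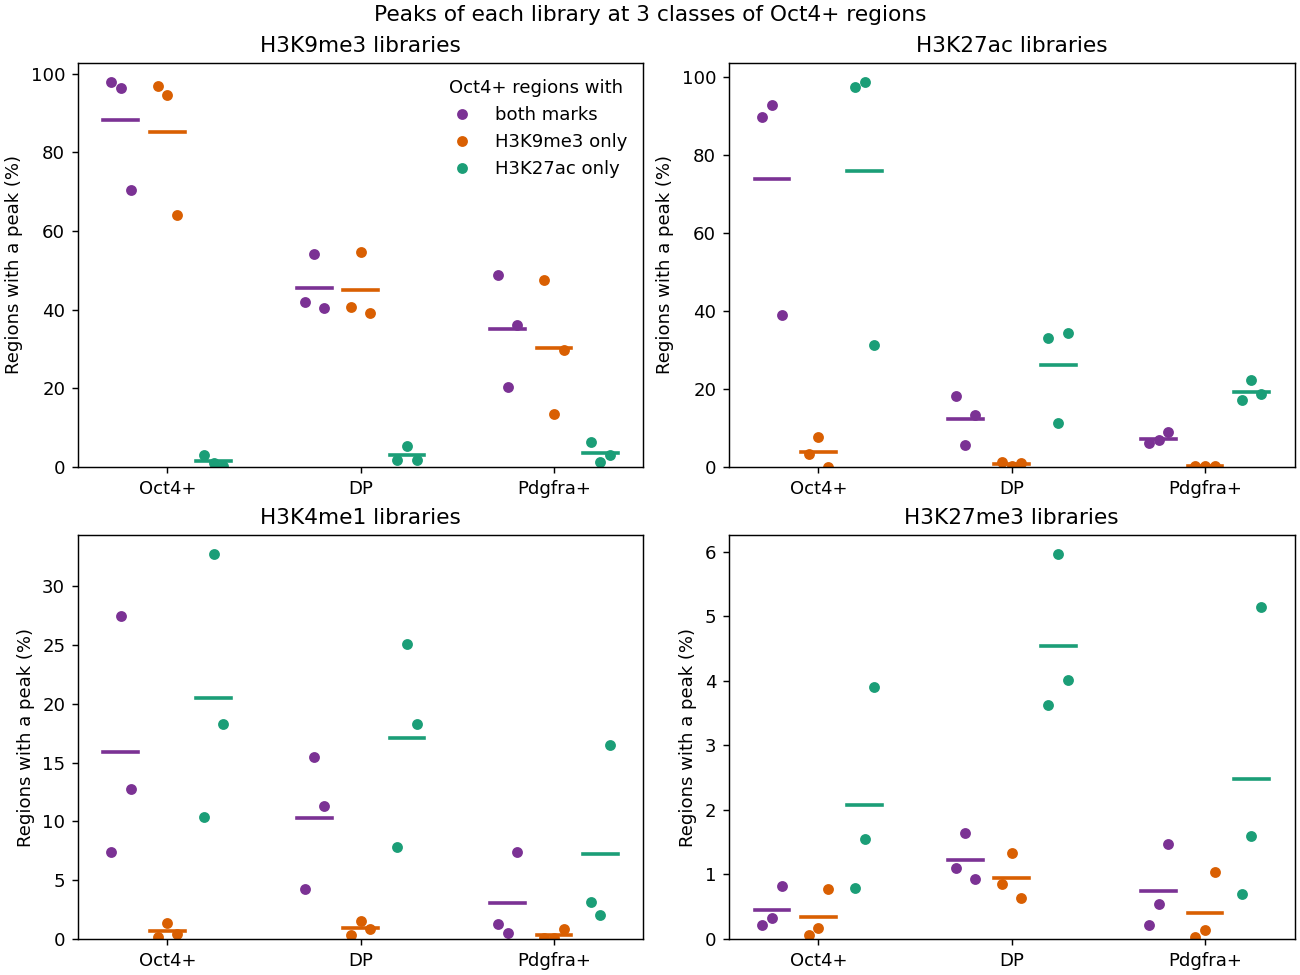
Percent of regions with a peak (y axis, from 0) in each library of the 4 marks, by population (x axis), at regions with both marks, H3K9me3-only and H3K27ac-only regions. Dots are the 3 libraries and lines their means. For H3K4me1 the regions with both marks lay between the other classes in all 9 libraries.

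Genes were read from lists that were chosen with earlier results of these data known, so the counts describe and test nothing. Of 21938 protein-coding genes, 565 (2.58%) held a region with both marks in the body or promoter. Of 40 imprinted genes 10 did (25.0%), and at 7 of them a region met a promoter, against 143 of all 21938. In the same list 23 genes (57.5%) held an H3K9me3-only and 16 (40%) an H3K27ac-only region, beside 13.3% and 45.8% of all protein-coding genes. The median body was 26.9 kb for the imprinted genes and 18.4 kb for all genes. The regions lay at H13 and Mcts2, at Peg3 and Usp29, at Commd1 and Zrsr1, at Snrpn, in Kcnq1ot1, in Herc3 and in Trappc9. A single region served both H13 and Mcts2, as also both Peg3 and Usp29 and both Commd1 and Zrsr1. The count of genes is thus higher than the number of regions.

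The region at Mcts2, a retrogene inside H13 that is expressed from the paternal copy, was chr2:152682825-152690370. Its H3K9me3 peaks stood at the 95.8, 97.8 and 72.8 percentiles of total signal in the Oct4+ libraries, at 88.1, 94.2 and 88.9 in DP and at 93.4, 75.1 and 88.5 in Pdgfra+. Its H3K27ac peaks stood at 81.1, 99.0 and 83.1 in Oct4+, at 17.2 and 6.4 in 2 DP libraries and at 3.4 in 1 Pdgfra+ library. H3K9me3 was thus listed in all 9 libraries. H3K27ac outside Oct4+ stood low within its own list or was not listed. These percentiles are ranks in lists of unlike length, 38619 peaks in Oct4+ replicate 1 and 4861 in Pdgfra+ replicate 3. They do not show that the level of H3K27ac was lower outside Oct4+.

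The region at Peg3, a paternally expressed zinc finger gene, and Usp29 beside it was chr7:6723831-6733584. H3K9me3 stood at 97.6, 98.9 and 97.2 in Oct4+, at 78.1, 98.6 and 96.3 in DP and at 96.2 and 88.6 in Pdgfra+, where replicate 2 had no peak. H3K27ac stood at 85.8, 92.8 and 72.8 in Oct4+, 86.3, 79.4 and 89.5 in DP and 68.8, 93.1 and 70.2 in Pdgfra+. Both marks were thus consensus regions in all 3 populations. The maxima of the 2 marks lay 780 bp apart.

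Further along the list, the region at Zrsr1, a retrogene in an intron of Commd1 (chr11:22965609-22975018), had H3K9me3 in all 9 libraries, and H3K27ac in 3 of 3 Oct4+ and 3 of 3 DP libraries but no Pdgfra+ library. Its maxima lay 94 bp apart. The region at Snrpn (chr7:60000418-60007370), a paternally expressed gene of the Prader-Willi cluster, had H3K9me3 in 8 of 9 libraries and H3K27ac in the 3 Oct4+ libraries alone, at the 81.7, 62.7 and 63.9 percentiles, with maxima 222 bp apart. The promoter of Kcnq1ot1 (chr7:143294190-143298257), the antisense RNA that silences neighbours of Kcnq1 in cis, had H3K9me3 in 8 libraries, and H3K27ac in 2 libraries of each population, with maxima 85 bp apart. The regions in Herc3 (chr6:58878923-58882136) and Trappc9 (chr15:73005109-73008445) were weaker, each with 2 Oct4+ libraries of either mark and no peak elsewhere.

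ZFP57, a KRAB zinc finger protein that keeps the methylated copy of imprinting control regions silent, recognises TGCCGC. These letters, on either strand, occurred 10 times in the Snrpn region (1.44 per kb), 8 times in the Peg3 region (0.820 per kb), 4 times at Zrsr1 and 3 times each at Mcts2 and Kcnq1ot1, and not in the Herc3 and Trappc9 regions. Over all regions with both marks the mean was 0.0941 per kb and 28.6% held at least 1 match, against 31.1% of H3K9me3-only and 43.7% of H3K27ac-only regions. The letters hold a CpG. CpG per 100 bases was 1.18 at Snrpn, 1.91 at Peg3, 1.87 at Zrsr1, 1.93 at Mcts2 and 2.83 at Kcnq1ot1. It was 1.18 at Herc3 and 1.05 at Trappc9, beside a median of 0.812 over all regions with both marks. The part of CpG content was not tested. The 2 windows of 120 bp outside exons with 3 matches are shown with the matches of either strand in capitals.
Mcts2 region, chr2:152686790-152686909, plus strand: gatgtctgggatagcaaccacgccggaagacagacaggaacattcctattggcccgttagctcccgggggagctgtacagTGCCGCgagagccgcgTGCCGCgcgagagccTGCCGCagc
Peg3 region, chr7:6730056-6730175, plus strand: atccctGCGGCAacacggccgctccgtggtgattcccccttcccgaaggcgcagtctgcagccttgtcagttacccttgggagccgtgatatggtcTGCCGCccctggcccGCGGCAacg
The Peg3 window lay 531 bp from the H3K9me3 maximum and 1311 bp from the H3K27ac maximum of its region. The Mcts2 window lay 1076 and 1760 bp from them. Unlike the repeat copies above, these windows share only the short motif.

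No region with both marks lay in the body or promoter of any of the 25 pluripotency genes, the 25 endoderm genes, 24 genes of the H3K9 methylation machinery, 67 histone genes or 54 clustered protocadherins. With 2.58% of all genes holding one, lists of this size can hold none without standing apart. H3K27ac-only regions lay at 23 of the pluripotency genes (92%) and 11 of the endoderm genes (44%), beside 45.8% of all protein-coding genes. Of 22 annotated genes of the 2-cell-like list, 4 held a region with both marks (18.2%). They were Sp110, Duxf3, Pramel6 and Tdpoz4, which belong to families of near-identical copies whose reads the counting could split. The promoter region of Duxf3 (chr10:58230907-58232830), a copy of the Dux gene that switches on the 2-cell programme, had H3K9me3 in all 9 libraries at the 71.2 to 95.6 percentiles, and H3K27ac in the 3 Oct4+ libraries alone at 90.8, 94.1 and 73.0. Sp110 (chr1:85589867-85593996) had H3K9me3 in all 9 libraries, H3K27ac in the 3 Oct4+ and 2 DP libraries, and H3K27me3 in 8 of 9.

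Of 25 germline genes, Dazl and Stk31 held a region (8%). Dazl, an RNA-binding protein of germ cells whose promoter is silenced in somatic cells, had H3K9me3 at its promoter (chr17:50292236-50295619) in 8 of 9 libraries and H3K27ac in 2 Oct4+ libraries, at the 57.6 and 69.2 percentiles, and in no DP or Pdgfra+ library. Of 365 Zfp genes 20 held one (5.48%), Zfp982, Zfp936 and Zfp617 with the highest rank. Zfp982 (chr4:147481035-147494213) had H3K9me3 in all 9 libraries, at 99.2 to 99.7 in Oct4+ and 23.6 to 60.6 in Pdgfra+. Of 1092 olfactory receptor genes, 4 held one (0.366%), led by Olfr697. Of 79 ribosomal protein genes only Rpl3 did. Of 25 trophectoderm genes Fgfr2 did, by 3 regions inside its long vM21 model, of which 2 also lay in the bodies of Fam53b and Ctbp2 and the other was 939.6 kb from the start site.

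The regions were ranked by a joint rank, the lower of the 2 mean percentiles of total signal over the Oct4+ libraries of the marks, so that a high rank needs both to be strong. Of the 8 highest, 2 lay next to the start of a chromosome's sequence. The first, chr3:3011784-3034008, began 11.8 kb after the first sequenced base of chromosome 3, and the fifth, chr17:3003408-3023243, began 3.41 kb after that of chromosome 17. At the first, total signal of H3K9me3 was 140073, 139181 and 34715 in Oct4+, 186836, 241495 and 189242 in DP and 333212, 152280 and 207032 in Pdgfra+. That of H3K27ac was 55245, 67273 and 25104 in Oct4+, with no peak in DP and Pdgfra+. Total signal is coverage summed over the peak and was not scaled between libraries, so it is read within a library only. The region of chromosome 17 and that near Gm16503 in the Zfp cluster of chromosome 4 (chr4:147515022-147531815) had the same pattern of all 9 H3K9me3 and only the 3 Oct4+ H3K27ac libraries, as had a region 72.5 kb from Prl2c2 (chr13:12922956-12932931).

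Of the rest of the 8 highest, 2 on distal chromosome 12 had Zfp386 as nearest protein-coding start site, 428 and 439 kb away. Another on chromosome 12 lay 87.7 kb from Tmem121, 1 lay in Pnpla1 and 1 at Crlf2. At Crlf2 (chr5:109548666-109558012), a cytokine receptor gene, H3K27ac was in all 9 libraries and H3K9me3 in 7, missing from Pdgfra+ replicates 1 and 3. Repeats that the assembly holds in too few copies gather reads of all copies. No IgG peak list was used here, and their part in these values was not tested.

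Only 6 regions had a peak in all 18 libraries of both marks. The 5 of highest rank were 916 kb from Adam6a, at Il3ra, 40.6 kb from Bcas2, at Csf2ra and 52.6 kb from Ccny. Only protein-coding genes gave these names, so genes of other types can lie nearer. Il3ra and Csf2ra encode cytokine receptor subunits and, with Crlf2, are pseudoautosomal in humans. At Il3ra (chr14:14344885-14357692) H3K9me3 stood at the 98.6 to 99.9 percentiles in all 9 libraries and H3K27ac at 75.9 to 99.0. Csf2ra (chr19:61224580-61229151) lay 102 kb before the last sequenced base of chromosome 19, with maxima of the 2 marks 26 bp apart.

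At the other end, 120 regions had a peak in 3 of 3 Oct4+ libraries of both marks and in none of the 12 DP and Pdgfra+ libraries of these marks. Those of highest rank lay 16.1 kb from Fbxo30, 150 kb from Arhgap42 and 2.03 kb from Sult3a2. The next lay 137 kb from Ly96 and 434 kb from Kif18a. The region near Fbxo30 (chr10:11258810-11265184) stood at 93.9, 91.4 and 97.4 for H3K9me3 and 96.9, 97.3 and 80.4 for H3K27ac, with H3K4me1 in 5 of 9 libraries. The region near Arhgap42 (chr9:9389366-9397518) stood at 95.3, 90.6 and 88.0 for H3K9me3 and 98.1, 95.7 and 82.5 for H3K27ac, and its maxima lay 31 bp apart. That near Ly96 (chr1:16824702-16828658), a partner of Toll-like receptor 4, stood at 91.7, 79.9 and 84.4 for H3K9me3 and 99.0, 98.4 and 97.2 for H3K27ac. None of the 5 met a promoter.

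Among the 67 regions with H3K27ac and without H3K9me3 consensus regions in both DP and Pdgfra+, those of highest rank were near Car2, near Ly6c2, in Manbal, at Rpe and at an alternative start of Asb8. The region 105 kb from Car2 (chr3:14991364-15003605), over an exon, had H3K9me3 at the 99.3, 96.2 and 92.8 percentiles in Oct4+ and no peak in the other 6 libraries, while H3K27ac was in all 9 and H3K4me1 in 8 of 9. In the intron of Manbal (chr2:157387217-157390667), H3K27ac stood at 88.3 to 99.8 in all 9 libraries, and H3K9me3 at 75.5, 79.8 and 79.1 in Oct4+, at 45.9 in DP replicate 2 and at 31.9 in Pdgfra+ replicate 3. At the promoter of Rpe (chr1:66697139-66701185), an enzyme of the pentose phosphate pathway, H3K9me3 stood at 89.1, 73.2 and 71.5 in Oct4+ and in no other library.

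**Figure D5:**
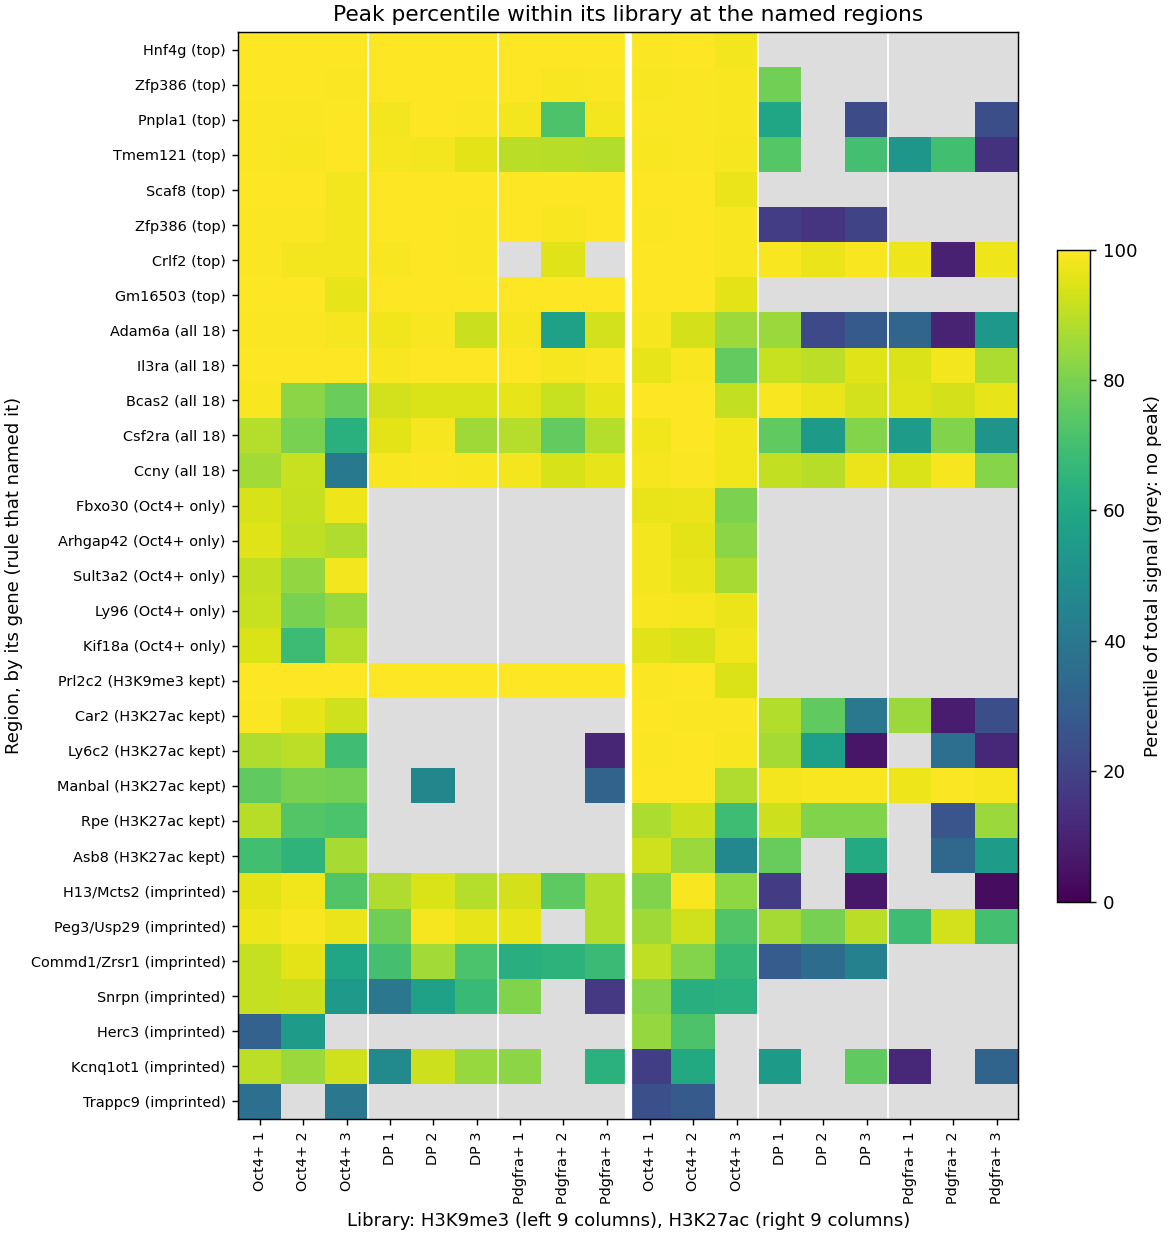
Percentile of total signal within its library (colour, grey for no peak) of the H3K9me3 (left 9 columns) and H3K27ac (right 9 columns) peaks at the named regions, by gene, with the rule that named each. A region named by several rules is shown once, under the first, so the others that kept H3K9me3 carry the label of the highest ranks. The Oct4+ only regions are grey outside Oct4+. The region labelled as having kept H3K9me3, near Prl2c2, is grey for H3K27ac outside Oct4+. The imprinted regions keep H3K9me3 in most libraries except at Herc3 and Trappc9.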

How the data were processed

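CUT&Tag peak lists of 36 libraries (4 marks, 3 populations, 3 replicates) were used. The deposited lists hold intervals called by the authors from BEDtools coverage with SEACR (stringent, against IgG), with total and maximum signal in coverage units that had not been scaled. The submitters' processing notes name mm10, bcl2fastq 2.19.1, Bowtie2, SAMtools 1.12, deepTools, SEACR and bedtools 2.26.0. The sources used here do not give read depth or the SEACR normalization setting. The 3 IgG samples were not used here.

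Consensus regions, overlaps and exact permutation tests used Python 3.11.15, NumPy 2.4.6 and pandas 2.3.3 and were checked on simulated intervals and against bedtools 2.31.1. In each library the percent of regions with a peak (1 bp or more) was compared between classes by sign-flip permutation over libraries. Excess was compared between populations by permutation of libraries. Benjamini-Hochberg adjustment was made over 6 and 4 tests, with a threshold of 0.05. The same regions enter every library, so p measures agreement over libraries only. Peaks were ranked by total signal within each library, as percentiles. No 2 lists were identical.

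Genes came from GENCODE vM21 and sequence from RefSeq GRCm38.p6. Named regions were the 8 of highest joint rank, the 5 of highest rank with peaks in all 18 libraries, in Oct4+ only, with H3K9me3 alone or with H3K27ac alone in DP and Pdgfra+, and those at listed genes (for lists over 40 genes, 3). The 16-mers were chosen after their values were seen. The regions and lists were chosen with earlier results of these data known. Alternatives covered the overlap, the consensus, the peaks used, widths, each replicate and the replicate block. Same-numbered libraries did not deviate together, so the numbers were not taken to pair them, though this cannot exclude a shared culture or sort.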

Additional observations from a re-analysis of the deposited data

How the results depend on the processing

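With the processing changed one choice at a time, the directions of the H3K4me1 differences and of both H3K27me3 differences from the other classes held in all settings run, while the H3K9me3 excess and the H3K27ac differences did not. The number of regions, 1827, became 519 with a consensus of 3 of 3 libraries, 6360 with 1 or more, 160 with equal numbers of peaks per list, 747 with the stronger 50% of each list, 1175 at widths of 2000 to 5000 bp, and 506 to 1640 without 1 replicate. The H3K9me3 excess of 2.64 points turned to -1.76 (3 of 3) and -2.34 (widths) and ranged from -3.16 to 1.67 without 1 replicate, with -0.66 without replicate 1, but passed the test at 5.12 (1 or more), 15.2 (equal numbers) and 5.22 (stronger 50%). The H3K27ac difference of -12.96 points became 0.53 away from promoters, an alternative added after seeing the data, -28.8 to -11.9 without 1 replicate, -29.6 (3 of 3), -27.5 (equal numbers) and -3.74 (1 or more), the last 3 still past the test. Its difference between DP and Pdgfra+, -1.87, became 4.04 with equal numbers and 0.57 away from promoters, and ranged from -7.73 to 3.10 without 1 replicate, with 2.46 without replicate 1. The H3K4me1 excess over H3K9me3-only regions was 8.74 to 16.6 and that against H3K27ac-only regions -8.74 to -4.34 without 1 replicate, and the latter missed the test at -1.50 (widths). The H3K4me1 difference between populations, 12.5, passed at 6.01 with equal numbers, which leaves 160 regions, and Oct4+ peaks chose the regions. The H3K27me3 excess over H3K9me3-only regions missed it at 0.119 (equal numbers) and 0.104 (away from promoters) and was 0.152 to 0.480 without 1 replicate. Against H3K27ac-only regions it missed it at -0.415 (equal numbers) and was -1.66 to -0.804 without 1 replicate. The causes of these changes were not tested, beyond the fewer regions or libraries that each setting leaves. Same-numbered libraries correlated by -0.324 to 0.228 in their deviations, and the numbers were not taken to pair them. The lists differ widely in length, so these values do not settle whether such libraries share a culture or sort. Under a replicate block the values -12.96, 9.12, -5.16, 0.249 and -2.22 stayed but p became 0.25, the smallest that 3 blocks allow in the exact test, and no other call changed. Overlaps of 200 bp or of 50%, and peaks over the midpoint, changed no call. With peaks over the midpoint the excess over H3K9me3-only regions fell to 4.85 points for H3K4me1, 0.144 for H3K27me3 and 0.690 for H3K9me3. The differences from H3K27ac-only regions there were -13.6 for H3K27ac, -5.41 for H3K4me1 and -2.02 for H3K27me3. Unknown depth limits every statement that a peak is missing.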
